A study of Mus musculus with 3 samples.

Results

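Nonsense-mediated mRNA decay (NMD) is the surveillance pathway that degrades mRNAs on which translation ends too early or far from the messenger ribonucleoproteins that normally sit downstream of a stop codon. The 7 genes described here encode its core machinery in mouse and were chosen by name: Upf1, Upf2, Upf3a, Upf3b, Smg1, Smg5 and Smg6. All 7 were present in a table of 17946 genes. The rule used gene names alone. UPF1 is an RNA helicase, and UPF2 bridges it to UPF3A or UPF3B, which contact the exon junction complex left on mRNA by splicing. The kinase SMG1 phosphorylates UPF1, and phosphorylated UPF1 is bound by SMG5 and by the endonuclease SMG6. In mouse male germ cells several of these proteins have been located in the chromatoid body, the germ granule of round spermatids that also holds the PIWI protein MIWI.

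The transcriptomes came from round spermatids, the haploid cells that follow meiosis, of male C57BL/6 mice aged 28 days. The cells were purified by flow sorting after Hoechst staining. The genotypes were MiwiΔIns, MiwiR371W and wild type, with 1 mRNA library each. Miwi is the gene Piwil1, which encodes MIWI. The labels give neither the zygosity of the alleles nor the number of animals in a library, and they name no treatment. The study set either mutant against wild type to examine transposons and mRNAs. Since each genotype has 1 library, differences have no replicate check, and no p-value was computed.

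The values of genes matched to the annotation implied about 9980000 fragments in MiwiΔIns, 7070000 in MiwiR371W and 8900000 in wild type. This was estimated from steps in the low values and the median transcript length of each gene, and does not cover other fragments of the libraries. Piwil1 was at 23.2 in MiwiΔIns, 23.45 in MiwiR371W and 20.3 in wild type, which does not show which allele was transcribed. All 8 round spermatid markers were listed at 1 or more in each library, and their summed value was 21659 in MiwiΔIns, 17515 in MiwiR371W and 15421 in wild type. The sum is carried by Prm1, Prm2, Tnp1 and Tnp2. The other 4 markers (Acrv1, Spaca1, Tssk2 and Catsper3) were lower in MiwiR371W than in wild type, while in MiwiΔIns 7 of the 8 were higher than in wild type and Tssk2 was lower. Summed values were 120.0, 122 and 112 for 8 spermatocyte markers, and 19.4, 20.3 and 17.5 for 7 spermatogonial markers, in the same order of libraries. For 5 measured Sertoli cell markers they were 13.6, 15.7 and 21.85, most of it Clu, with Sox9 and Amh not among the genes of the table. They were 7.49, 6.44 and 3.85 for 5 Leydig cell markers, 4.20, 5.05 and 3.76 for 5 macrophage markers, and 6.01, 13.2 and 5.66 for 5 peritubular and endothelial markers. The 1 erythroid marker of the table was at 0.41 or less in each library. The part of these marker differences in the ratios below was not tested. In sorted bulk cells, fewer cells of a type and less RNA per cell cannot be told apart.

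The members lie on chromosomes 8 (Upf1 and Upf3a), 2 (Upf2), X (Upf3b), 7 (Smg1), 3 (Smg5) and 11 (Smg6). The paralogs Upf3a and Upf3b and the helicase gene Upf1 are shown by their upstream DNA, because Upf3a has the highest level of the set, Upf3b is its paralog, and Upf1 has the lowest level. Each line gives the 250 bases before the RefSeq transcript start in GRCm38.p6, with capitals marking matches, on either strand, to the NRF1 motif GCGCANGCG or to the CRE core TGACG.
Upf3a upstream, chr8:13785365-13785614, plus strand: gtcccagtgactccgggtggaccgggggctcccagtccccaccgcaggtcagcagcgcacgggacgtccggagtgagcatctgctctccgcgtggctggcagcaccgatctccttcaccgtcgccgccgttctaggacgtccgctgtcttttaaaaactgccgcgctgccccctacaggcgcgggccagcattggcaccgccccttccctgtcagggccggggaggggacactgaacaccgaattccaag
Upf3b upstream, chrX:37110323-37110572, minus strand: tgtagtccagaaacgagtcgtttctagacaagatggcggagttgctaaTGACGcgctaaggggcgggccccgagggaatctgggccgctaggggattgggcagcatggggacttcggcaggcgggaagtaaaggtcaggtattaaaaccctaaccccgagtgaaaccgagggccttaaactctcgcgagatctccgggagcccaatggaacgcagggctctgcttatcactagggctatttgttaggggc
Upf1 upstream, chr8:70353280-70353529, minus strand: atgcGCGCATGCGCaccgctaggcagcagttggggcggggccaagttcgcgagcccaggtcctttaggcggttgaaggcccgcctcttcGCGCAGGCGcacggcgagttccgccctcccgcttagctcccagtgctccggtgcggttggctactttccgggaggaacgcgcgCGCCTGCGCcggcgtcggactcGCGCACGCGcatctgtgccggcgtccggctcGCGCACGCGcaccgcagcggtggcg

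The GC content of these windows was 67.2% for Upf3a, 56.8% for Upf3b and 72.8% for Upf1, against a median of 52.4% over 32536 distinct upstream windows of mouse genes. They held 23, 16 and 41 CpG dinucleotides, against a median of 6. Over the 7 members GC ran from 56.8% to 72.8%. The Upf1 window held 6 matches to the NRF1 motif at 5 separate places, since matches on opposite strands can overlap, and the Smg6 window held 1. Of all windows, 5.20% held any. The other 5 members had none. The CRE core TGACG was found in 1 member, Upf3b, 202 bases before the start, and in 17.9% of all windows. The full CRE TGACGTCA, which contains that core, was in none of the members and in 1.56% of windows. The TATA box TATAAA, the ETS motif CCGGAAG and the E-box CACGTG were also in none, against 12.3%, 6.95% and 6.04% of windows. The GC box GGGCGG was in 6 of 7 members, all but Smg5, and in 33.0% of windows. The CCAAT box CCAAT was in 3 members (Upf3a, Upf3b and Smg1) and in 33.8% of windows, and the A-MYB motif CNGTTG in 2 (Upf1 and Smg5) and in 29.2%. The background windows were not matched for GC content, so the shares of GC-rich motifs such as GGGCGG and GCGCANGCG are not set against windows of like composition. A match of letters is not a binding site.

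Upf3a was by far the most abundant of the NMD factor transcripts in spermatids of every genotype. Its value was 241 in MiwiΔIns, 242 in MiwiR371W and 249.9 in wild type. These values are normalised to transcript length and library size, so that levels of different genes can be set side by side. Upf3a (ENSMUSG00000038398.7, chromosome 8, 13785615 to 13799193, plus strand, in GENCODE M21 on GRCm38) ranked 544 by mean value among 12567 genes with a mean of at least 1. It made up 54.1% of the summed value of the 7 genes in MiwiΔIns, 51.9% in MiwiR371W and 53.9% in wild type. The highest and the lowest library differed by 1.04 times, the smallest spread of the set.

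Upf3b, its X-linked paralog, was at 17.7 in MiwiΔIns, 14.1 in MiwiR371W and 15.0 in wild type. The MiwiΔIns library was the highest, and MiwiR371W and wild type lay close together. Upf3b (ENSMUSG00000036572.10) runs from 37091678 to 37110322 on the minus strand of the X chromosome. Upf3a exceeded Upf3b by 13.6 times in MiwiΔIns, 17.1 times in MiwiR371W and 16.7 times in wild type, on the scale of the length-normalised values. A search of all annotated transcripts found no alignment of at least 200 nt and 85% identity between the paralogs.

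Upf1, whose product is the central helicase of the pathway, had the lowest level of the 7. It was at 9.02 in MiwiΔIns, 13.8 in MiwiR371W and 11.04 in wild type. MiwiR371W was the highest library and MiwiΔIns the lowest, with wild type between them. Upf1 (ENSMUSG00000058301.6, chromosome 8, 70331525 to 70353278, minus strand) lay at percentile 50.9 of mean value among the 12567 genes, and the extremes differed by 1.53 times, the widest spread of the set. The adaptor gene Upf2 was at 29.2 in MiwiΔIns, 27.0 in MiwiR371W and 30.1 in wild type, with extremes 1.12 times apart. Upf2 (ENSMUSG00000043241.8, chromosome 2, 5951469 to 6056703, plus strand) exceeded Upf1 by 3.24 times in MiwiΔIns, 1.96 times in MiwiR371W and 2.73 times in wild type.

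Smg1, the gene of the kinase that phosphorylates UPF1, was at 24.3 in MiwiΔIns, 28.35 in MiwiR371W and 19.0 in wild type. Both mutant libraries lay above wild type. Smg1 (ENSMUSG00000030655.8, chromosome 7, 118131308 to 118243670, minus strand) has the longest transcript of the set, at 15557 nt in 63 exons, and a 3′ UTR of 4233 nt. Smg5, which encodes an adaptor that binds phosphorylated UPF1, was at 82.1 in MiwiΔIns, 93.5 in MiwiR371W and 101 in wild type. Both mutant libraries lay below wild type. Smg5 (ENSMUSG00000001415.5, chromosome 3, 88336260 to 88362338, plus strand) was the second most abundant member in each library.

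Smg6, which encodes the endonuclease that cleaves NMD substrates, was at 42.5 in MiwiΔIns, 47.1 in MiwiR371W and 37.7 in wild type, with both mutant libraries above wild type. Smg6 (ENSMUSG00000038290.9) spans 74925823 to 75164448 on the plus strand of chromosome 11. Its longest coding transcript shares 126 nt (2.15%) with exons of Srr on the opposite strand, a gene at 75.6 in MiwiΔIns, 50.8 in MiwiR371W and 68.8 in wild type. The labels do not state whether the libraries keep the strand, so reads in that stretch cannot be told apart. Upf1 shares 68 nt (1.47%) with exons of Cers1, which was at 0.04 or less in each library. The other 5 members had no exonic overlap with another gene in their longest coding transcript.

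**Figure D1:**
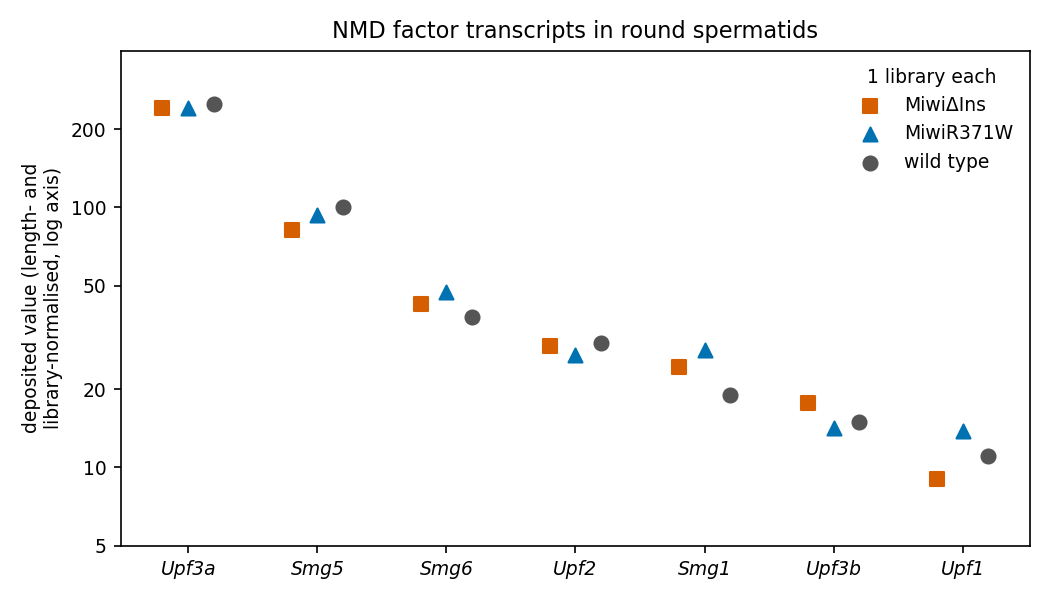
Deposited values (log axis) of the 7 NMD factor genes, ordered by mean, with 1 point per library (squares MiwiΔIns, triangles MiwiR371W, circles wild type; no error bars, since each genotype has 1 library). Upf3a sits between 241 and 249.9 in each library and Upf1 between 9.02 and 13.8, while Smg1 and Upf2 overlap.

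The order of levels was Upf3a, Smg5, Smg6, Upf2, Smg1, Upf3b, Upf1 in both MiwiΔIns and wild type. In MiwiR371W Smg1 and Upf2 changed places. Smg1 (19.0 to 28.35) and Upf2 (27.0 to 30.1) were the neighbours whose ranges over the 3 libraries overlapped. The ranges of Upf3b (14.1 to 17.7) and Upf1 (9.02 to 13.8) came close without overlapping. The 7 values summed to 446 in MiwiΔIns, 465 in MiwiR371W and 463 in wild type. Without Upf3a the sums were 205, 224 and 213. The 3 libraries are of different genotypes, so these ranges are not a replicate error.

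The annotation gives 3 of the 7 genes, Smg1, Smg5 and Smg6, a transcript of the class nonsense-mediated decay, and 4 of them (Upf3a, Smg1, Smg5 and Smg6) at least 1 retained-intron transcript. Such a decay transcript is common, being annotated for 2192 coding genes with a mean of at least 5 and absent from 5150. The share of genes with a retained-intron transcript was not computed. These counts are therefore not a result about the members. In human cells the mRNAs of several NMD factors are themselves substrates of the pathway. The 3′ UTRs of the longest coding transcripts ran from 719 nt in Upf3a to 4233 nt in Smg1, against a median of 931 nt over 10645 coding genes. Smg1 was at percentile 94.1 of that distribution and the other members between 42.8 and 65.3. The deposited value is 1 per gene, so transcript classes were not separated.

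In MiwiΔIns against wild type, none of the 7 genes changed at least 2-fold. The kinase gene Smg1 had the highest log2 ratio, 0.34, and the adaptor gene Smg5 the lowest, −0.29. Ratios are log2((x + 1)/(y + 1)), and a gene counted as changed at 2-fold or more with a value of at least 5 in the higher library. By this rule 2.06% of 8550 genes were called, so 0 of 7 is near the background and is not a result about these genes. The ratio was 0.23 for Upf3b, 0.17 for Smg6, −0.043 for Upf2, −0.051 for Upf3a and −0.26 for Upf1. Thus 3 members were positive and 4 negative. The median was −0.043, beside 0.027 over the 12567 genes with a mean of at least 1. Of the 7 genes, 4 lay between the 25th and 75th percentiles of all genes, which were −0.19 and 0.25. Upf1 became positive (0.088) once a trend on transcript GC content and length was removed, as did Upf3a (0.075).

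In MiwiR371W against wild type, Smg1 was again the member with the highest ratio and none passed the rule. Smg1 had a log2 ratio of 0.55, a ratio of 1.49 without the pseudocount, at percentile 90.6 of all genes. Smg6 had 0.31 and Upf1 0.29. The other members were close to or below 0, with −0.048 for Upf3a, −0.079 for Upf3b, −0.10 for Smg5 and −0.15 for Upf2. The median was −0.048, beside 0.041 over all 12567 genes, and 3 members were positive and 4 negative, of which Upf3a became positive (0.0079) without mitochondrially encoded and the 50 most abundant genes. The rule called 3.30% of 8719 genes in this comparison, so 0 of 7 is again near the background. This comparison and that of MiwiΔIns share the wild-type library, so the ratios of a gene in them are not independent.

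In MiwiR371W against MiwiΔIns, Upf1 had the highest ratio, a log2 ratio of 0.56 at percentile 91.3 of all genes. Smg1 had 0.21, Smg5 0.19, Smg6 0.15 and Upf3a 0.0024. Upf2 had −0.11 and Upf3b −0.31, the lowest. Each log2 ratio here is the difference between the gene's log2 ratios to wild type in MiwiR371W and MiwiΔIns, so it is no separate measurement. The median was 0.15, beside 0.023 over all genes, with 5 members positive and 2 negative. This split rests on ratios near 0, since Upf2 became positive without mitochondrially encoded and the 50 most abundant genes (0.017) and with equal sums of the table (0.029), and Upf3a became negative (−0.092) after the GC and length trend was taken out. None passed the rule, which called 4.48% of 8744 genes. The ratio of Upf1 was 0.28 after removal of the trend on GC content and length. The median was 0.28 without mitochondrially encoded and the 50 most abundant genes, where the median of all genes was 0.14.

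**Figure D2:**
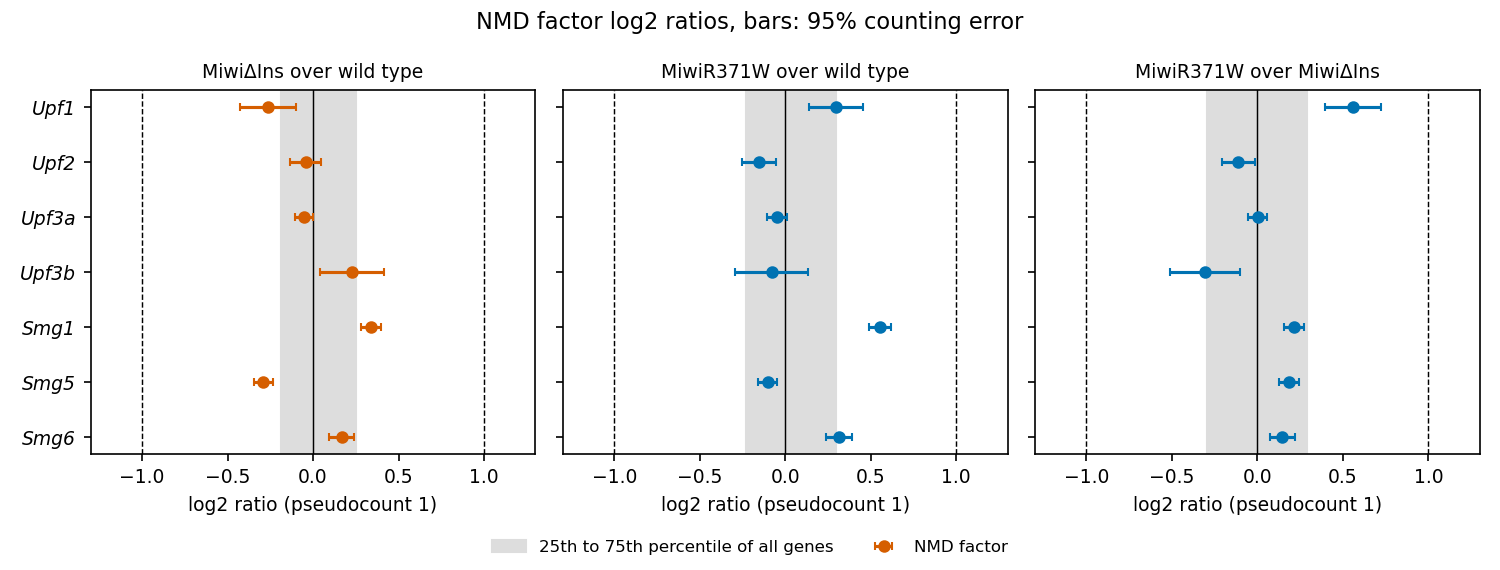
Log2 ratios (pseudocount 1) of the 7 NMD factor genes in the 3 comparisons, with bars for 95% counting error of the estimated fragments only, a grey band from the 25th to the 75th percentile of 12567 genes, and dashed lines at 2-fold. No gene reaches a dashed line. Outside the band lie 7 of the 21 ratios, which are not independent: Smg1 (0.34), Upf1 (−0.26) and Smg5 (−0.29) in MiwiΔIns over wild type, Smg1 (0.55) and Smg6 (0.31) in MiwiR371W over wild type, and Upf1 (0.56) and Upf3b (−0.31) between the mutants. By construction the lowest 25% and the highest 25% of all genes also lie outside it, so this count is not a result about the members.

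Counting error was small beside several of these ratios. The values rested on an estimated 310 fragments (Upf3b in MiwiR371W) to 6140 fragments (Upf3a in MiwiΔIns), taking the longest coding transcript of each gene. Counting alone gave the log2 ratios an SD of 0.026 to 0.11. For ratios without the pseudocount on the deposited scale, the 95% counting interval left out 0 for 16 of 21 ratios, which are not independent. For Smg1 it was 0.30 to 0.42 in MiwiΔIns against wild type and 0.52 to 0.64 in MiwiR371W against wild type. For Upf1 in MiwiR371W against MiwiΔIns it was 0.45 to 0.77. For Upf3a it held 0 in each comparison, from −0.10 to 0.00054 in MiwiΔIns and from −0.10 to 0.0073 in MiwiR371W, both against wild type. These intervals do not include the spread between animals, sorts or library preparations, which 1 library per genotype cannot show. Nor do they include the choice of scaling. Of the 16, Upf1 in MiwiΔIns against wild type became positive (0.088) after the GC and length trend was removed. Upf2 in MiwiR371W against MiwiΔIns became positive under some scalings (up to 0.029).

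The spread of the members was compared with that of genes of like level. The median absolute log2 ratio of the 7 was 0.23 in MiwiΔIns against wild type, 0.15 in MiwiR371W against wild type and 0.19 in MiwiR371W against MiwiΔIns. Over 5629 genes whose mean lay within the range of the members (11.3 to 244) it was 0.20, 0.24 and 0.27 in the same order, so the members' value was the higher in the first comparison and the lower in the other two.

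**Figure D3:**
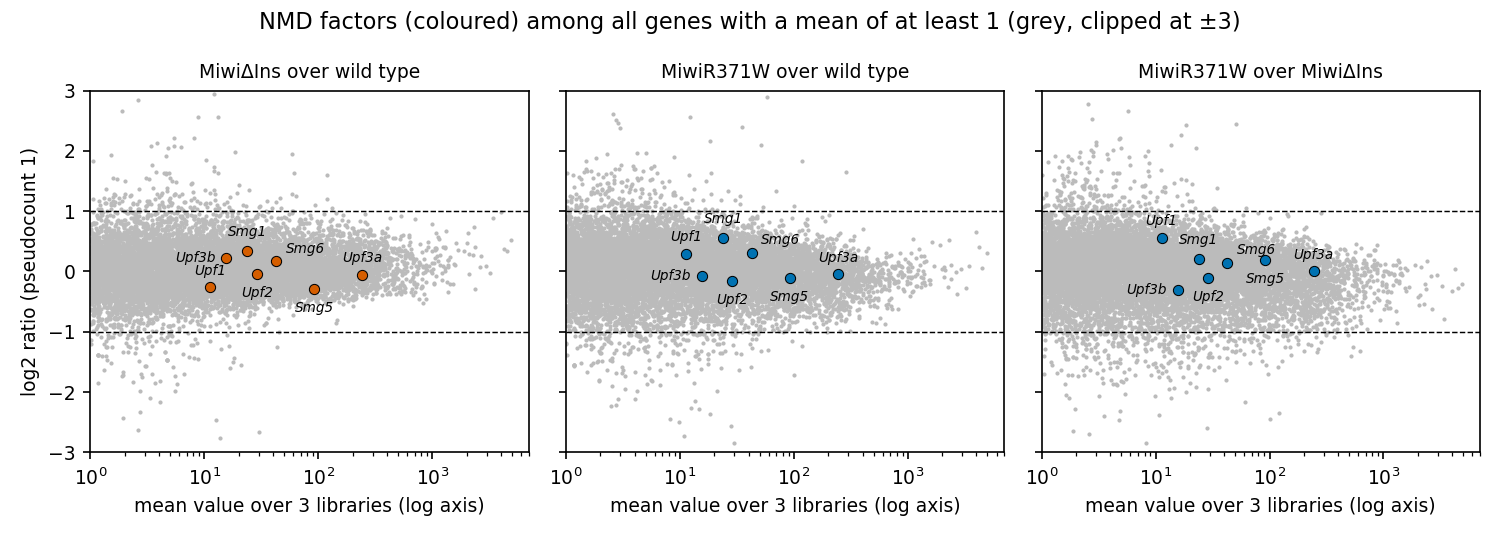
Log2 ratio (pseudocount 1) against mean value over the 3 libraries (log axis) for genes with a mean of at least 1 (grey) and the 7 NMD factors (coloured, named), with dashed lines at 2-fold. The members lie inside the cloud of genes of like level in each comparison, with Upf3a near 0.

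For the 3 members with the largest ratios, the genes of nearest pattern were sought. Likeness was the Euclidean distance between pairs of log2 ratios to wild type, over 3 libraries and 6727 other protein-coding genes with a mean of at least 5. Genes with predicted, clone or pseudogene names were left out. Nearest to Upf1 were Cep250 (distance 0.011) and Galnt10 (0.020). Nearest to Smg1 were Rufy1 (0.021) and Gtdc1 (0.022), and nearest to Smg6 were Zfp207 (0.0054) and Tatdn2 (0.0069). Within a distance of 0.1 lay 111 genes for Upf1, 73 for Smg1 and 244 for Smg6.

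Genes of the pathway outside the core set were described by 7 lists with 53 measured genes, of which 34 reached the minimum value of 5 in each comparison and so could pass the rule. Of these 34, none passed in MiwiΔIns against wild type, 1 in MiwiR371W against wild type and none in MiwiR371W against MiwiΔIns, where the rule called 2.06%, 3.30% and 4.48% of all genes. These counts are near the background and are not a result about the lists. Among other NMD factors, 8 genes were measured and 7 could pass. In MiwiΔIns against wild type the median was −0.19, with 3 positive and 5 negative, and in MiwiR371W against wild type 0.053, with 5 positive and 3 negative. In MiwiR371W against MiwiΔIns all 8 were positive, with a median of 0.20. Ruvbl2, a helicase of the complex that assembles PIKK kinases such as SMG1, was at 115 in MiwiΔIns, 125 in MiwiR371W and 154 in wild type. Smg9, a subunit that binds SMG1, was at 55.9, 73.15 and 73.1 in the same order. Its partner Smg8 was at 2.88, 3.02 and 2.74, so that Smg9 exceeded Smg8 by 19.4 to 26.7 times. Smg8 was named after its values were seen.

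The exon junction complex, to which UPF3 proteins bind, had 9 measured genes, of which 8 could pass the rule and none did. Medians were −0.022 in MiwiΔIns and 0.22 in MiwiR371W, both against wild type, and 0.13 between MiwiR371W and MiwiΔIns. The most abundant were the peripheral members Sap18, at 121 in MiwiΔIns, 98.7 in MiwiR371W and 124 in wild type, and Acin1, at 106, 127 and 109. The core helicase Eif4a3, named after its values were seen, was at 30.3, 40.9 and 35.3. Upf3a exceeded Eif4a3 by 7.96 times in MiwiΔIns, 5.91 times in MiwiR371W and 7.09 times in wild type.

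Translation termination and ribosome recycling genes (6 measured, 5 at the minimum value) and cap-binding genes (5 measured, 3 at the minimum value) also had none past the rule. Their medians were −0.013 and 0 in MiwiΔIns against wild type, 0.013 and 0.19 in MiwiR371W against wild type, and −0.031 and 0.19 in MiwiR371W against MiwiΔIns. Each cap-binding median was the ratio of Ctif, at 0.09 in MiwiΔIns, 0.24 in MiwiR371W and 0.09 in wild type, far under the minimum value. The 3 cap-binding genes at the minimum value had 0.30 (Ncbp1), 0.22 (Eif4e) and −0.51 (Ncbp2) in MiwiR371W against wild type. Ctif and Ncbp2 were named after their values were seen. Gspt1, which encodes the release factor eRF3a, was at 57.85 in MiwiΔIns, 63.1 in MiwiR371W and 46.7 in wild type. The ribosome rescue gene Hbs1l was at 77.0, 91.0 and 77.1. The nuclear cap-binding gene Ncbp1 was at 183, 231 and 187, and the cytoplasmic cap-binding gene Eif4e at 47.0, 41.0 and 35.1.

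Decay enzymes that act after NMD had 9 measured genes, with medians of 0.19 in MiwiΔIns and −0.0053 in MiwiR371W, both against wild type, −0.022 in MiwiR371W against MiwiΔIns, and none past the rule. Only 4 of them reached the minimum value. The median of 0.19 was the ratio of Dcp2, a gene under that value. The 4 genes had −0.52 (Cnot7), −0.46 (Skiv2l), −0.15 (Dcp1b) and 0.19 (Wdr61) in MiwiΔIns against wild type. Cnot7 and Wdr61 were named after their values were seen. Dcp1b, a decapping activator, was at 105 in MiwiΔIns, 104 in MiwiR371W and 117 in wild type. Skiv2l, the helicase of the SKI complex that feeds the exosome, was at 46.8, 59.4 and 64.7. The decapping enzyme gene Dcp2, named after its values were seen, was at 0.41, 0.38 and 0.24.

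The list of other UPF1 partners had 6 measured genes, of which 3 could pass the rule, and it held the 1 call among the 34 genes, Stau1 in MiwiR371W against wild type. Stau1 encodes a double-stranded RNA-binding protein that recruits UPF1 to mRNA. It was at 8.32 in MiwiΔIns, 13.6 in MiwiR371W and 5.03 in wild type. Both mutant libraries lay above wild type. The log2 ratio was 1.27 in MiwiR371W and 0.63 in MiwiΔIns, both against wild type, and 0.64 between MiwiR371W and MiwiΔIns. In the same order of libraries the values rested on about 390, 470 and 220 fragments, and the counting interval in MiwiR371W against wild type, without the pseudocount, was 1.20 to 1.66. With a pseudocount of 5 the ratio was 0.89 and the call was lost. Tdrd6, a chromatoid body protein gene whose product associates with UPF1 in mouse spermatids, was at 285 in MiwiΔIns, 370 in MiwiR371W and 304 in wild type. The histone mRNA-binding gene Slbp was at 95.6, 66.3 and 76.6. Medians of the 6 genes were 0.090 in MiwiΔIns and −0.11 in MiwiR371W, both against wild type, and −0.011 in MiwiR371W against MiwiΔIns.

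Transcripts known as NMD targets in mammalian cells had 10 measured members of 12, of which 5 had a mean of at least 1 and 4 reached the minimum value. None of these 4 passed the rule. Medians were 0.13 in MiwiΔIns and 0.052 in MiwiR371W, both against wild type, with 7 positive and 3 negative in either comparison, and −0.010 in MiwiR371W against MiwiΔIns. These medians and counts include the genes under the minimum value, so the split is not a result about the targets. Of the 12567 genes with a mean of at least 1, 53.1% were positive in MiwiΔIns and 54.0% in MiwiR371W, both against wild type. Tbl2 was at 55.6 in MiwiΔIns, 77.2 in MiwiR371W and 67.8 in wild type. The stress-induced transcription factor gene Ddit3 was at 63.5, 53.4 and 53.9. The host gene of small nucleolar RNAs Gas5, named after its values were seen, was at 40.4, 36.15 and 35.8. Atf3, also named after its values were seen, was at 1.45, 1.17 and 0.04, under the minimum value of 5.

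**Figure D4:**
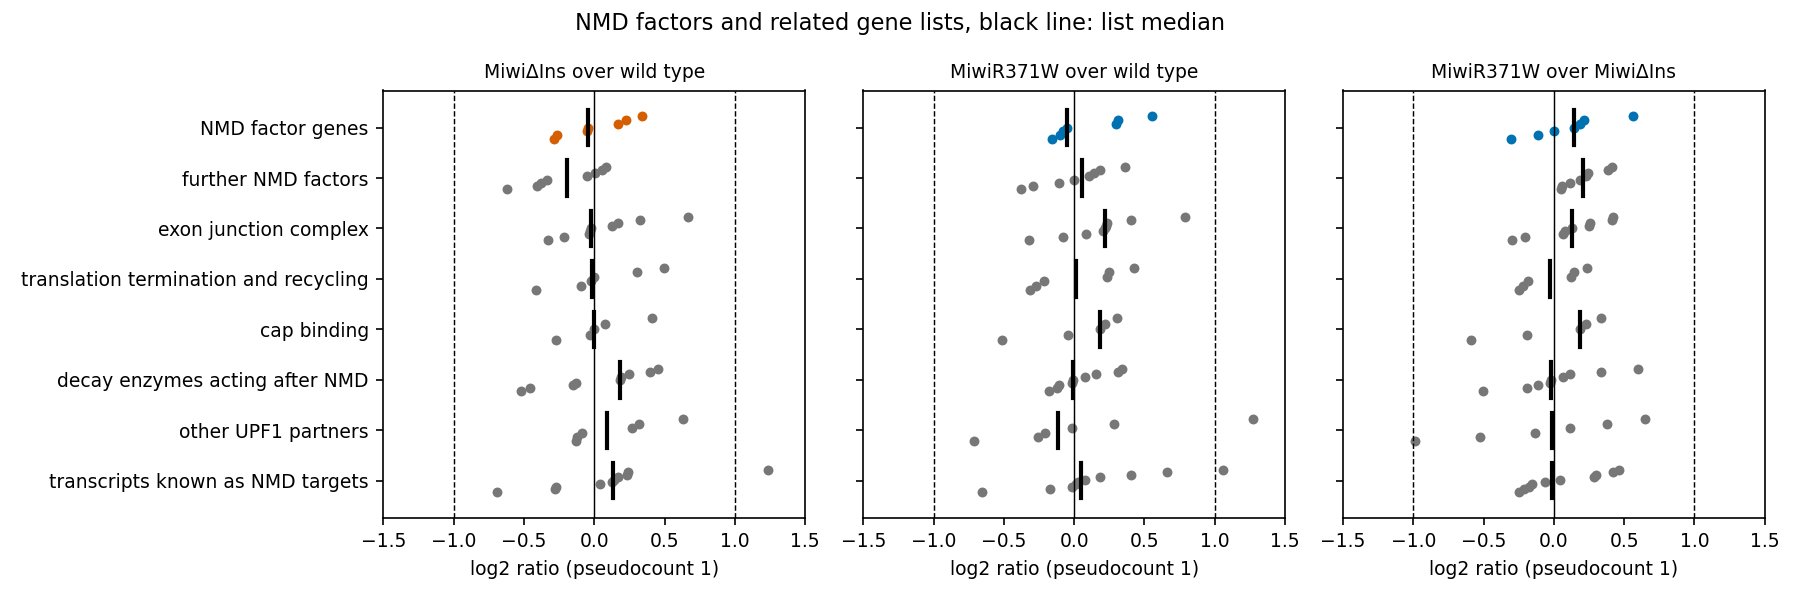
Log2 ratios (pseudocount 1) of the 7 NMD factor genes (coloured) and of the 7 related gene lists (grey) in the 3 comparisons, with 1 point per gene, a black line at each list median and dashed lines at 2-fold. Stau1 in MiwiR371W over wild type (1.27) is past 2-fold among the UPF1 partners, and Atf3 (1.24 and 1.06 over wild type) is past it among the targets at values under 5.

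Transcript features linked to NMD were also set against the ratios, as classes chosen after other results of these data were known. Among coding genes with a mean of at least 5, those with an annotated nonsense-mediated decay transcript (2192 genes) had a median of 0.015 in MiwiΔIns against wild type, beside 0.029 for those without (5150 genes). In MiwiR371W against wild type the medians were 0.055 and 0.027, and in MiwiR371W against MiwiΔIns 0.053 and 0.0060. The same genes were split by 3′ UTR length into 5 classes of about equal size. From the shortest (up to 218 nt) to the longest (from 2234 nt), the class medians were 0.10, 0.034, −0.024, 0.0040 and 0.019 in MiwiΔIns against wild type. They were −0.084, 0.028, 0.073, 0.083 and 0.076 in MiwiR371W against wild type, and −0.18, 0.020, 0.10, 0.080 and 0.051 in MiwiR371W against MiwiΔIns. The class with the shortest UTRs thus stood furthest from the others, and the medians did not move steadily with length. After the GC and length trend was taken out, the shortest class had 0.12, −0.050 and −0.17 in these comparisons, and the longest 0.021, 0.045 and 0.018. Annotated length is that of the longest coding transcript, and the UTR in use in spermatids was not measured.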

How the data were processed

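Messenger RNA of sorted round spermatids was measured in 3 libraries, 1 per genotype (MiwiΔIns, MiwiR371W and wild type). The authors deposited a table of genes whose values are a signal normalised to transcript length and library size. Whether it is FPKM or TPM is not given in the sources used here. Per the submitters' processing notes, the build was mm10 (GRCm38), and the software included RSEM, STAR and Trim Galore 0.5.0, with no roles given. Library columns were matched to samples by the labels.

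Ratios were log2((x + 1)/(y + 1)) over the whole table. A gene was called at 2-fold with at least 5 in the higher library. With 1 library per genotype no test was run. Members and lists were chosen with earlier results of these data known. From each list the members past the rule and the 2 most abundant were named, besides genes said to be named after their values were seen. Some items are not reported here. The 2 nearest genes were named for the 3 members with the largest ratios.

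Positions, lengths, GC contents and 3′ UTRs came from GENCODE M21 (17673 genes, 98.5%, matched by identifier), and upstream sequences of all 7 members from RefSeq (GRCm38.p6). In the table Pym1 is listed as Wibg and Ncbp3 as 1200014J11Rik. Low values of 1124 single-transcript genes of 2000 to 5000 nt, multiplied by length less 300 or 325 nt, fell on steps of 0.069 value × kb in MiwiΔIns, 0.094 in MiwiR371W and 0.074 in wild type, taken as 1 fragment. Mean distances from whole steps were 0.12, 0.096 and 0.11, against 0.25 without steps. Intervals cover counting error only. The step search, trend removal and calls were tested on simulated data. Copies were searched with BLAST 2.17.0; other work used Python 3.11.15, numpy 2.4.6 and pandas 2.3.3. Alternatives were pseudocounts of 0.1 and 5, no minimum or 10, 4 scalings and removal of a GC and length trend.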

Additional observations from a re-analysis of the deposited data

How the results depend on the processing

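The count of NMD factor genes past the rule was 0 of 7 in each of the 3 comparisons under all 9 alternatives, and the largest absolute log2 ratio of a member under any setting was 0.69. The changed minimum values and the larger pseudocount could not raise the count of 0, because no member ratio reached 2-fold without them. Neither pseudocounts nor minimum values can alter the sign of a ratio. Scaling by the median of ratios between libraries left the member ratios in MiwiR371W against MiwiΔIns unchanged. Of the 21 member ratios, which are not independent, 16 kept their sign under the scalings and the removal of a GC and length trend. The exceptions were Upf1 in MiwiΔIns against wild type (0.088 after removal of a GC and length trend, against −0.26), Upf3a in each comparison and Upf2 between the mutants (up to 0.029, against −0.11). The median in MiwiΔIns against wild type was −0.12 without mitochondrial and the 50 most abundant genes, 0.088 after removal of the GC and length trend and −0.15 with sums of the full table equalised, against −0.043. In MiwiR371W against MiwiΔIns it was 0.28 without those genes and 0.29 with sums equalised, against 0.15. Sums equalised were added after seeing the data. That scaling moved the median of all genes by 0.13 in MiwiR371W against MiwiΔIns, and leaving out those genes moved it by 0.12. No paired analysis was possible because each genotype has 1 library. Depth limits low genes such as Dcp2 more than the members, whose values rest on 310 fragments or more, and the cause of the shifts in medians was not tested beyond the scalings themselves.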
